A study of Mus musculus with 11 samples.

Results

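The genes described here are 7 core pluripotency genes, Pou5f1, Nanog, Sox2, Sall4, Lin28a, Utf1 and Tdgf1, of 21631 protein-coding genes placed on mouse assembly GRCm38 (mm10). They were chosen by name, not by a measured value, though with earlier results of these data known. Each was taken as its gene body plus 20000 bp on both sides, a window of 41.26 to 58.87 kb. The windows held 42 of the 37244 H3K4me1 peaks of the deposited unified list.

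The data are CUT&Tag-BS libraries of E14 cells, a mouse embryonic stem cell line of 129/Ola background, kept in serum with leukemia inhibitory factor. In this assay a Tn5 transposase, tethered to chromatin through an antibody to a histone mark, inserts methylated adapters near the mark. The released fragments are then converted with bisulfite, so each read gives both the mark and the cytosine methylation of 1 fragment. All groups are the same untreated line, with no knockout, transgene or drug. H3K4me1 and H3K9me3 were each read from 250000 cells in run 1 (35-bp reads) and run 2 (75-bp reads), and H3K27me3 from 4000, 20000, 100000 and 250000 cells. Each mark also had 1 library without bisulfite from 250000 cells, for which a peak list was used. Run 1 and run 2 of a mark were treated as 1 library sequenced again, a reading drawn from the calls, since the labels do not say. For H3K4me1 in the 7 windows, the single calls of both runs matched at 98.1% of 315 CpGs called once in each. Of 528 CpGs called 2 times in run 2, 79.0% had matching calls. For H3K9me3, with fewer such CpGs, 90.8% of 76 and 84.6% of 39 matched. On this reading there is no replicate of any mark. Values are from run 2 with run 1 beside them, and each test below compares sets of calls, not marks or cultures.

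As background, Pou5f1 (Oct4), Sox2 and Nanog encode the transcription factors at the centre of the embryonic stem cell network, and Sall4 encodes a zinc finger factor that works with them. Lin28a binds RNA and blocks maturation of let-7 microRNAs, Utf1 is a chromatin-bound protein of undifferentiated cells, and Tdgf1 (Cripto) is a co-receptor for Nodal. H3K4me1 marks enhancers and the flanks of active promoters, H3K27me3 marks genes held silent by Polycomb, and H3K9me3 marks heterochromatin. Promoters rich in CpGs are usually unmethylated, while enhancers bound by transcription factors are often partly methylated in stem cells grown in serum.

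The promoter sequences of 4 of the genes are shown because they differ widely in CpG number and because the methylation calls below fall on them. They come from RefSeq, build GRCm38.p6, run from 250 bases before to 50 bases from the start, and are written 5′ to 3′ on the gene's strand, which is the plus strand for all 4. Capitals mark CpGs. The positions are chr17:35505782-35506081 for Pou5f1, chr6:122707239-122707538 for Nanog, chr3:34649745-34650044 for Sox2 and chr7:139943606-139943905 for Utf1.
Pou5f1: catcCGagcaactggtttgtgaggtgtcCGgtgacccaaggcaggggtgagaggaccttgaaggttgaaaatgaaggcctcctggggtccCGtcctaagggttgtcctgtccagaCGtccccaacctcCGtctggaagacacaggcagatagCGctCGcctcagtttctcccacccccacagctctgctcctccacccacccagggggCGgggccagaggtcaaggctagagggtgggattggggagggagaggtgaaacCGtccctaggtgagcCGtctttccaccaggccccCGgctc
Nanog: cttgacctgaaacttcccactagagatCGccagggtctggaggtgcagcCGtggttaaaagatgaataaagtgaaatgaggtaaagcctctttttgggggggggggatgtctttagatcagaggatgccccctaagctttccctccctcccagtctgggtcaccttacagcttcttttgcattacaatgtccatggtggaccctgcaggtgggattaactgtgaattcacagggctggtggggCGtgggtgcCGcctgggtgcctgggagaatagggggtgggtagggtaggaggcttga
Sox2: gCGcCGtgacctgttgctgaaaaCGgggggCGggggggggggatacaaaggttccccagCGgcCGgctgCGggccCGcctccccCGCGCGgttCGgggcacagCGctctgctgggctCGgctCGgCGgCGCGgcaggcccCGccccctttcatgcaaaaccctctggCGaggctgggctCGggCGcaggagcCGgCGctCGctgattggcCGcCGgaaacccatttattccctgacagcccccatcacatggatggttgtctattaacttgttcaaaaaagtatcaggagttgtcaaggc
Utf1: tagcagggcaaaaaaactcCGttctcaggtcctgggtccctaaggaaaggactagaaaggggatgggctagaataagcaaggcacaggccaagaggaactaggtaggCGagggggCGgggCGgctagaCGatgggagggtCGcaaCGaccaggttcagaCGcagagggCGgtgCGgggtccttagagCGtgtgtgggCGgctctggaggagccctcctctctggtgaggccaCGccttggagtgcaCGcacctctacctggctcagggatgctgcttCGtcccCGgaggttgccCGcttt
These 300 bases hold 11 CpGs at Pou5f1, 4 at Nanog, 27 at Sox2 and 17 at Utf1. In H3K4me1 run 2, 0 of 22 calls on the Pou5f1 sequence were methylated, 1 of 12 at Nanog, 1 of 24 at Sox2 and 2 of 49 at Utf1. In run 1 the methylated calls were 0 of 15, 0 of 8, 0 of 26 and 0 of 28. A count of 0 of 22 allows a level of up to 13.6%, and 0 of 28 up to 10.7%. The Sox2 sequence was called at 9 of its 27 CpGs in run 2, and the Utf1 sequence at all 17.

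The Nanog sequence also holds a composite site for Oct4 and Sox2, spelled TTTGCAT, 1 further base and ACAATG, at -75 from the start. Both strands of 17274 RefSeq promoter windows of the same length were searched. The composite was found in 1 of them, Nanog itself. Alone, TTTGCAT was in 4.22% of the windows, among them Sox2 and Nanog, and ACAATG in 10.6%, among them Lin28a and Nanog. The nearest CpGs called in H3K4me1 run 2, at -201 and -7, had 0 of 2 and 0 of 3 methylated calls. A match describes letters in this window and is not evidence of binding in these cells.

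Over a wider promoter window of 1000 bp on both sides of the start, methylation on H3K4me1 fragments was low at all 7 genes. At Pou5f1, 0 of 94 calls were methylated in run 2, which allows a level of up to 3.19%, and 0 of 43 in run 1. At Nanog the counts were 3 of 78 (3.85%, Wilson 95% interval 1.32 to 10.7%) and, in run 1, 1 of 47. At Sox2 they were 1 of 145 (0.690%, 0.122 to 3.80%) and 0 of 86. At Tdgf1, 0 of 85 calls were methylated in run 2 (up to 3.53%) and 0 of 46 in run 1. Pou5f1, Sox2 and Tdgf1 thus had at most 1 methylated call in either run.

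The other 3 promoters had a few methylated calls. Sall4 had 6 of 84 in run 2 (7.14%, 3.31 to 14.7%) and 2 of 60 in run 1. Lin28a had 6 of 123 (4.88%, 2.25 to 10.2%) and 5 of 71. Utf1 had 8 of 139 (5.76%, 2.94 to 10.9%) and 1 of 75. The Wilson intervals of these 3 genes overlap one another and that of Nanog. They also overlap those of Pou5f1 (0 to 3.93%), Sox2 (0.122 to 3.80%) and Tdgf1 (0 to 4.32%). The 7 promoters are thus not ordered beyond counting error. The median of the 7 promoters was 3.85%, beside 4.32% over the 12727 protein-coding promoters with at least 20 calls. The median of the 7 was 1.33% in run 1, and 1.39% in run 2 with a window of 500 bp. All 7 were under 20%, a share read against 88.2% of those 12727 promoters, so a low promoter level is common and not particular to these genes.

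H3K4me1 itself was widespread around the 7 genes. Its peaks covered 66.2% of the Sox2 window, 64.1% at Pou5f1, 53.0% at Nanog, 48.2% at Sall4, 45.3% at Tdgf1, 28.2% at Utf1 and 12.9% at Lin28a. The median over all protein-coding genes was 1.10%. An H3K4me1 peak touched the promoter window of all 7 genes, against 23.0% of all promoters. The peaks were wide, with a median of 2248.5 bp beside 1089 bp in the whole unified list, and the widest were 17745 bp upstream of Tdgf1 and 16721 bp downstream of Sox2. No test of width was made.

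The amount of mark was read as calls per CpG divided by the library mean, so that 1 is the genome average. This measure also moves with the number of CpGs per fragment. Across the windows it was 8.85 at Pou5f1, 9.28 at Nanog, 12.0 at Sox2, 6.10 at Sall4, 1.84 at Lin28a, 4.03 at Utf1 and 8.94 at Tdgf1 in H3K4me1 run 2. Run 1 gave 9.11, 8.95, 12.4, 6.61, 1.92, 4.24 and 8.40 in the same order. Lin28a was the lowest and Sox2 the highest in both runs, and the median over all genes was 0.662 in run 2.

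**Figure D1:**
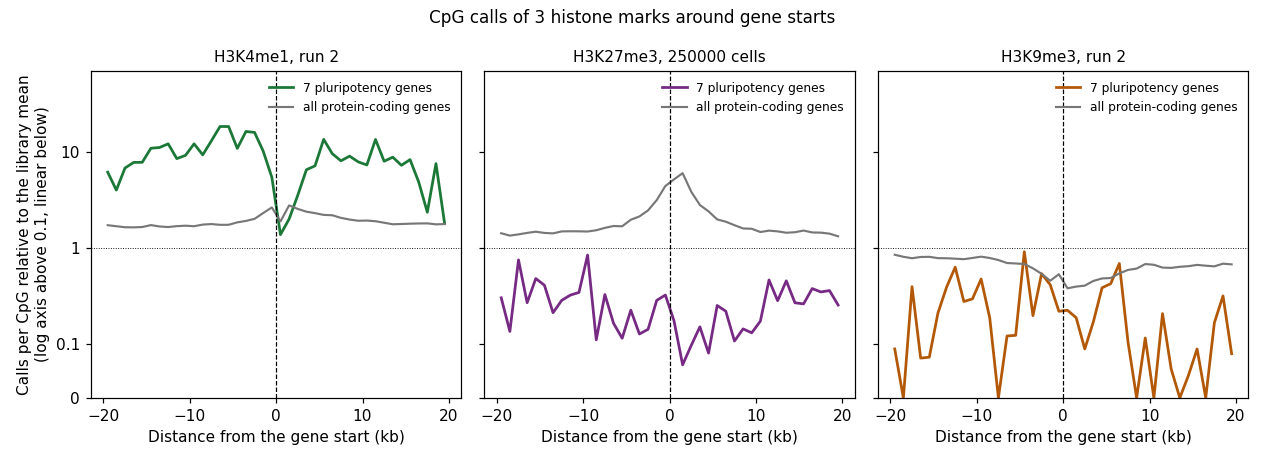
Calls per CpG relative to the library mean (vertical axis, logarithmic above 0.1 and linear below) by distance from the gene start in 1000-bp bins (horizontal axis, kb), for H3K4me1 run 2, H3K27me3 from 250000 cells and H3K9me3 run 2. Coloured lines pool the 7 pluripotency genes and grey lines all protein-coding genes; H3K4me1 of the 7 genes is 18.4 between -7000 and -6000 bp and 1.39 in the first 1000 bp after the start.

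The plot of calls by distance shows where the mark lay. Pooled over the 7 genes, H3K4me1 reached 18.4 times the library mean between -7000 and -5000 bp in run 2. It was 5.47 in the last 1000 bp before the start, 1.39 in the first 1000 bp after it, and 13.6 between 5000 and 6000 bp. Run 1 gave 1.38 just after the start. All genes pooled had 2.66 in the last 1000 bp before the start, 1.90 in the first 1000 bp after it and 2.79 between 1000 and 2000 bp. There the 7 genes had 2.01, so as a pool they were above the gene average upstream of the start and below it over the first 2000 bp after it. Genes with more CpGs weigh more in this pool, and single genes differed. In the first 1000 bp after the start, Pou5f1 (2.20), Nanog (2.20) and Lin28a (2.89) were above 1.90. Sox2 (0.568) and Sall4 (0.329) were below it. Upstream, Lin28a had 0 calls between -7000 and -5000 bp.

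The 42 H3K4me1 peaks were 7 at Pou5f1, 9 at Nanog, 5 at Sox2, 7 at Sall4, 3 at Lin28a, 7 at Utf1 and 4 at Tdgf1. Of these, 31 (73.8%) were in all 3 H3K4me1 lists, run 1, run 2 and the control without bisulfite, against 63.4% of the unified list. Of the 42, 6 were in 1 list only, against 20.7% of the unified list. These 6 were narrow, with a median width of 501 bp, beside 3545 bp for those in all 3. A width of 501 bp is also the narrowest in the unified list. A peak was counted as a promoter peak when it touched the window of 1000 bp around any gene's start: 10 peaks did and 32 did not. Peaks are measured whole where they pass the edge of a window, and a peak near a gene need not act on that gene.

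**Figure D2:**
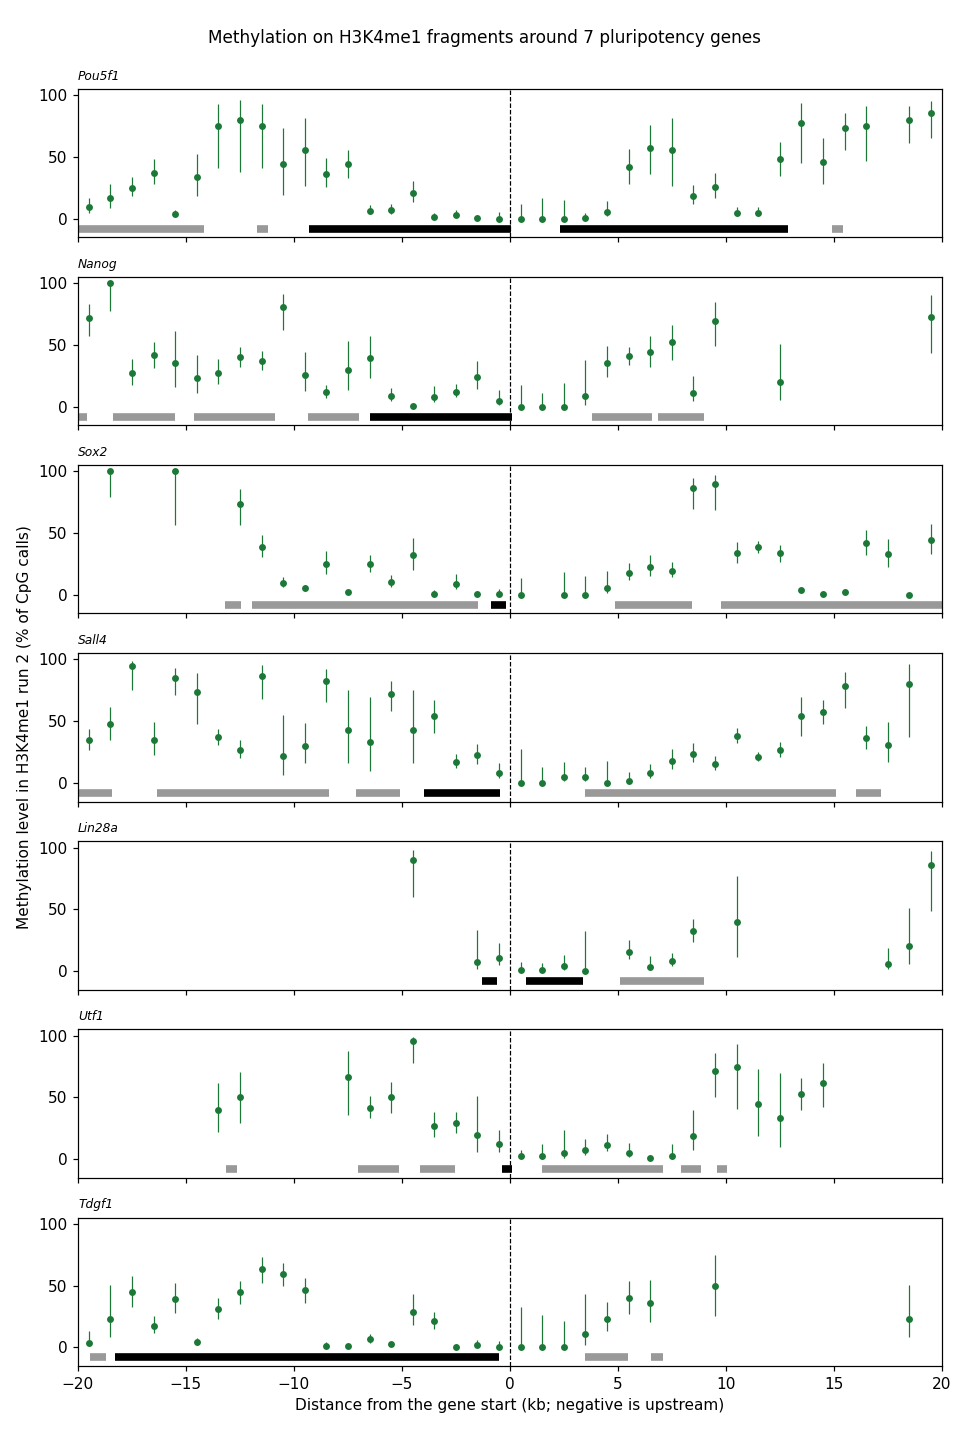
Methylation level on H3K4me1 fragments in run 2 (vertical axis, % of CpG calls, with Wilson 95% intervals) by distance from the gene start (horizontal axis, kb), in 1000-bp bins with at least 5 calls, 1 panel per gene. Bars under the points are H3K4me1 peaks, black for promoter peaks and grey for the others; the bins on both sides of the start are at most 12.0% in every panel, and levels within the wide Tdgf1 peak range from 0 to 63.3%.

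Pou5f1 had a long stretch with almost no methylated calls upstream of its start, where its known enhancers lie. The peak at the start, chr17:35496730-35506105, was 9376 bp wide and had 100 methylated calls of 1111 (9.001%, 7.46 to 10.8%) in run 2 and 10.7% in run 1. In it, 2 of 153 calls were methylated between -4000 and -3000 bp, 4 of 147 between -3000 and -2000 bp and 1 of 180 between -2000 and -1000 bp. Run 1 had 1 of 78, 1 of 100 and 1 of 85 in the same bins. The widest of its non-promoter peaks, 7263 bp from -21423 to -14161, was also the least methylated at 16.3% (102 of 625; 13.6 to 19.4%), and 17.8% in run 1. The most methylated was a 671-bp peak from 20331 to 21001 at 56.7% (17 of 30; 39.2 to 72.6%), found in the control list only. The remaining wide peaks of this window touch starts of its neighbours Tcf19 and Cchcr1 (15.0%) and Psors1c2 (45.5%).

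Nanog had 8 non-promoter peaks, more than any other of the genes, and most were partly methylated. Its start peak, chr6:122701019-122707599, had 55 methylated calls of 657 (8.37%, 6.49 to 10.7%) in run 2 and 7.25% in run 1. Between -5000 and -4000 bp, where a known Nanog enhancer lies, 1 of 188 calls was methylated, and 1 of 107 in run 1. The least methylated non-promoter peak, from -9339 to -6982, had 27 of 187 (14.4%, 10.1 to 20.2%), though run 1 gave 22.1%. The most methylated, from -22177 to -19569, had 147 of 311 (47.3%, 41.8 to 52.8%), and 50.6% in run 1. The widest, 9114 bp from 23837 to 32950 and in part past the window, had 43.3% (318 of 734). The other 5 had levels between 36.1 and 41.2%, so 7 of the 8 lay between 36.1 and 47.3% in run 2. Peaks with few calls are less certain. The one from 21972 to 22790 had 28 of 68 (41.2%, 30.3 to 53.0%), and 8 of 30 (26.7%) in run 1.

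Sox2 combined wide peaks with low levels. A 661-bp peak just upstream of its start, from -858 to -198, had 0 of 83 methylated calls in run 2, which allows up to 3.61%, and 0 of 48 in run 1. The 10479-bp peak upstream of it, chr3:34638051-34648529, was its least methylated non-promoter peak at 10.01% (195 of 1948; 8.76 to 11.4%), and 9.24% in run 1. The widest, chr3:34659785-34676505, had 652 of 3137 (20.8%, 19.4 to 22.2%), and 20.5% in run 1. This last value averages unlike stretches. Between 11000 and 12000 bp from the start 149 of 382 calls were methylated (39.0%), between 14000 and 15000 bp 2 of 379 (0.528%), and between 18000 and 19000 bp 1 of 308 (0.325%). Run 1 had 80 of 203, 1 of 212 and 1 of 157 there. The most methylated Sox2 peak, 726 bp from -13195 to -12470, had 18 of 27 (66.7%, 47.8 to 81.4%). The known distal Sox2 control region lies outside this window and was not examined.

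Of the 4 transcription factors, Sall4 had the most methylated peak at or beside the start, though these peaks cover unlike stretches. Its start was placed at the gene end with more CpGs, since RefSeq's promoter table had no entry for it. The peak from -3991 to -447 bp of that start, chr2:168767648-168771192, had 85 of 368 calls methylated (23.1%, 19.1 to 27.7%) in run 2 and 20.3% in run 1. This was above the start peaks of Pou5f1, Nanog and Sox2 by more than their counting intervals. The Sall4 peak does not cover the start, while those of Pou5f1 and Nanog reach past it. Between -4000 and -3000 bp 26 of 48 calls were methylated at Sall4, and between -1000 and 0 bp 6 of 74 (8.11%), so the ranking is not one of methylation at the start. Its widest and least methylated non-promoter peak lay inside the gene, 11665 bp from 3458 to 15122, at 24.6% (399 of 1623; 22.6 to 26.7%). Its most methylated, from -7107 to -5094, had 37 of 55 (67.3%, 54.1 to 78.2%), and 63.2% in run 1.

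Lin28a had the least H3K4me1 across its window, but not at its promoter. There its relative calls were 3.35 in run 2, above the median of the 7 promoters, 2.64. Of its 3 peaks, 2 flank the start: chr4:134015437-134018085 inside the gene had 3 of 145 methylated calls (2.07%, 0.706 to 5.91%), and the 685-bp peak upstream had 6 of 42 (14.3%, 6.72 to 27.8%). The only non-promoter peak, inside the gene from 5100 to 8985, had 53 of 339 (15.6%, 12.2 to 19.9%), and 17.1% in run 1.

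Utf1 had 6 non-promoter peaks of unlike levels. Downstream, the widest, chr7:139945341-139950964, had 21 of 457 methylated calls (4.60%, 3.02 to 6.92%), and 6.06% in run 1. It was also the least methylated, and lay past the end of the short gene. Farther downstream, a 501-bp peak from 9573 to 10073 had 8 of 11 calls methylated, and 27 of 51 were methylated between 13000 and 14000 bp. Upstream, the peak from -7036 to -5120 was the most methylated, with 71 of 167 (42.5%, 35.3 to 50.1%), though run 1 gave 31.1%. The peak at the start itself was 501 bp wide, was found in the run 1 list only, and had 2 of 68 methylated calls in run 2 and 0 of 35 in run 1.

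Tdgf1 lay beside the widest peak, chr9:110946680-110964424, which also reaches the start of its neighbour Lrrc2 and had 388 of 2431 calls methylated (16.0%, 14.6 to 17.5%) in run 2 and 15.0% in run 1. Its level changed abruptly along its length. Between -12000 and -11000 bp 50 of 79 calls were methylated (63.3%), between -10000 and -9000 bp 42 of 91 (46.2%), and between -9000 and -8000 bp 1 of 137 (0.730%). Run 1 had 16 of 29, 18 of 28 and 0 of 79 in these bins. The widest of its other peaks, inside the gene from 3502 to 5491, was also the most methylated at 28.4% (27 of 95; 20.3 to 38.2%), and 19.1% in run 1. The least methylated, from -19447 to -18682, had 0 of 44 calls, which allows up to 6.82%, and 0 of 21 in run 1.

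**Figure D3:**
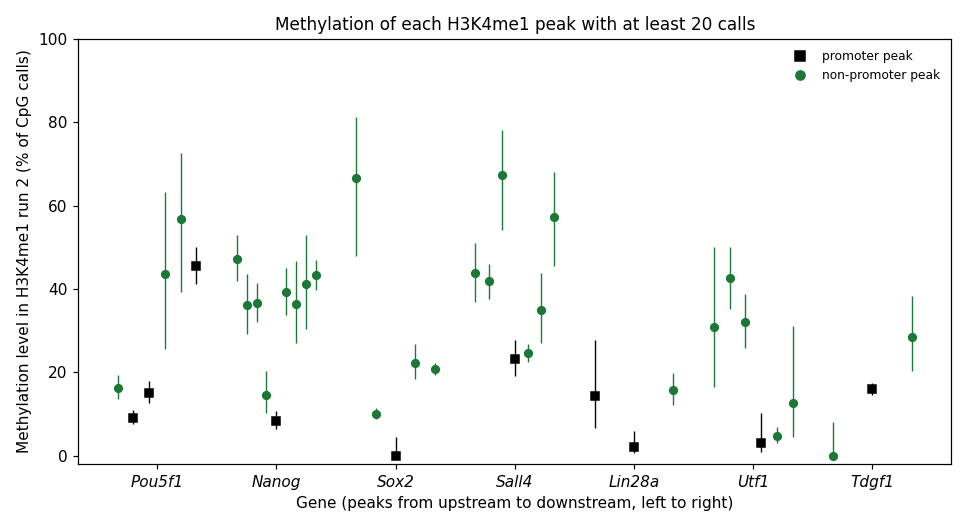
Methylation level of each H3K4me1 peak with at least 20 calls in run 2 (vertical axis, % of CpG calls, with Wilson 95% intervals), by gene (horizontal axis) and from upstream to downstream within a gene. Black squares are promoter peaks and green circles the 29 non-promoter peaks, none of which is over 80%.

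The plot of single peaks gathers these values. Of the 29 non-promoter peaks with at least 20 calls, 7 were under 20% methylated, 22 between 20 and 80% and 0 over 80%. Over the unified list the shares were 27.4% under 20% and 71.2% between, so 24.1% and 75.9% at the 7 genes are close to that background. The median level of the non-promoter peaks was 36.1% beside 31.9% in the series, and 31.1% in run 1. The 10 promoter peaks had a median of 11.6% beside 10.3%.

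Single CpGs within these peaks had unlike levels. Of 400 CpGs with at least 10 calls in the non-promoter peaks, 59.3% were under 20%, 38.8% between 20 and 80% and 2.0% over 80%. All non-promoter peaks of the series gave 58.2, 38.4 and 3.42%. Among the genes, 46.4% of 84 such CpGs at Nanog and 42.4% of 85 at Sall4 were under 20%, beside 73.6% of 220 at Sox2, 74.4% of 82 at Pou5f1 and 68.9% of 90 at Tdgf1, all peaks of each window included. Lin28a and Utf1 had 8 and 17 such CpGs, too few to place. A level between 20 and 80% at a single CpG can come from differences between cells or between alleles, which cannot be told apart in these libraries.

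**Figure D4:**
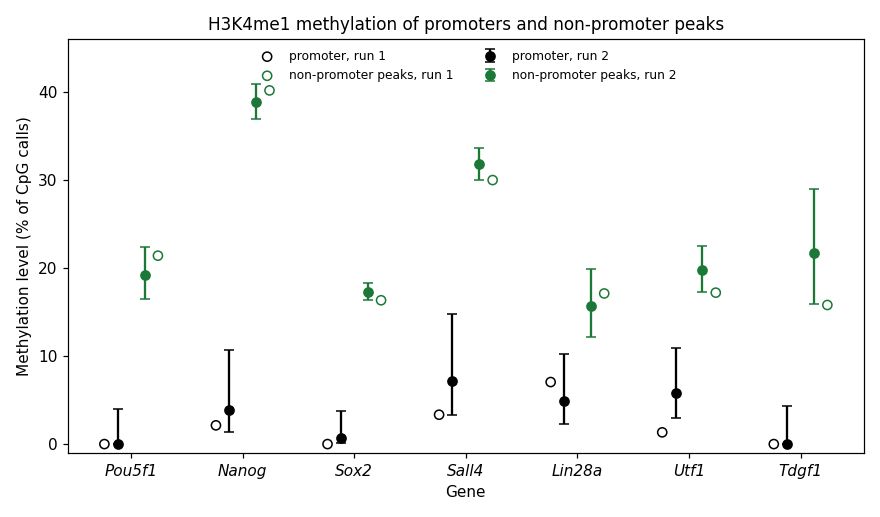
Methylation level (vertical axis, % of CpG calls) of the promoter window (black) and of the non-promoter H3K4me1 peaks pooled (green) for each gene (horizontal axis). Filled points are run 2 with Wilson 95% intervals and open points run 1; in both runs the non-promoter level is above the promoter level at all 7 genes.

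Promoter and non-promoter methylation were then compared within each gene, by Fisher's exact test (two-sided) on the calls of run 2 with Benjamini-Hochberg adjustment over 8599 genes. A gene was called when adjusted p was at most 0.05 and the levels differed by at least 20 points. Calls on 1 fragment are not independent, so these p-values are too small. Promoter peaks were left out whole, among them the 9376-bp peak of Pou5f1, the start peak of Nanog and the 17745-bp peak of Tdgf1. The upstream stretches with few methylated calls in these peaks are thus not part of the non-promoter level. Non-promoter peaks were called above the promoter at Nanog, Sall4 and Tdgf1. The pooled levels at Nanog were 38.8% (871 of 2242 calls) and 3.85%, a difference of 35.0 points (Fisher's exact test, adjusted p = 5.95e-12), and 38.0 points in run 1. At Sall4 they were 31.8% (822 of 2587) and 7.14%, 24.6 points apart (Fisher's exact test, adjusted p = 2.56e-07), and 26.6 in run 1. At Tdgf1 they were 21.7% (33 of 152) and 0%, 21.7 points apart (Fisher's exact test, adjusted p = 3.68e-07). Run 1 gave 15.8 points at Tdgf1, under the 20-point minimum, and there the call rests on 152 calls.

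The other 4 genes differed in the same direction but by less than 20 points. Pou5f1 was just short of the minimum, with 19.2% against 0% (19.2 points, Fisher's exact test, adjusted p = 2.88e-08) in run 2 and 21.4 points in run 1. Sox2 differed by 16.6 points (Fisher's exact test, adjusted p = 3.15e-10), Utf1 by 14.0 (adjusted p = 2.44e-05) and Lin28a by 10.8 (adjusted p = 0.00208). The 3 of 7 called stand against 56.9% of the 8599 genes tested. By adjusted p alone all 7 pass, against 76.9% of genes. In run 1, Lin28a did not pass by adjusted p alone (0.0598). The median difference of the 7 genes was 19.2 points beside 22.8 over all genes.

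H3K27me3, the Polycomb mark, was near or below the level of a median gene at these promoters. None of the 7 promoters touched an H3K27me3 peak, against 29.8% of promoters, and none touched an H3K9me3 peak, against 1.64%. Relative calls of H3K27me3 from 250000 cells in the promoter window were 0.222 at Pou5f1, 0.304 at Nanog, 0.210 at Sox2, 0.116 at Sall4, 0.383 at Lin28a, 0.306 at Utf1 and 0.0567 at Tdgf1. The library from 100000 cells gave 0.139, 0, 0.0604, 0.214, 0.302, 0.138 and 0.0246. The median over all promoters was 0.313 in the deeper library, and 6 of the 7 genes lay below it. Around the starts pooled, the 7 genes had 0.0619 between 1000 and 2000 bp where all genes pooled had 6.03, an average that a minority of strongly marked genes can raise. On the few fragments found, few calls were methylated, with 3 of 54 at the Lin28a promoter (5.56%), 1 of 64 at Utf1 (1.56%), and 0 at the other 5 from 7 to 58 calls. These 0 counts allow up to 5.17% at Sox2, 15.8% at Sall4, 16.7% at Nanog, 17.6% at Pou5f1 and 42.9% at Tdgf1, so a low level is not shown at Tdgf1. From 100000 cells, Utf1 had 2 methylated calls of 19, and no other of the 7 promoters had any.

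The windows held 4 H3K27me3 peaks and 1 H3K9me3 peak, all away from the starts. The largest H3K27me3 peak, 5471 bp from 16654 to 22124 downstream of Utf1, was highly methylated, with 194 of 227 calls (85.5%) in the 250000-cell library. The 2 peaks upstream of Lin28a were each in 1 list only. At Sall4, the H3K27me3 peak past the gene's end lies at the start of Atp9a, and the H3K9me3 peak, from 30743 to 33194, had 123 of 151 calls methylated in H3K9me3 run 2 (81.5%).

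Fragments with H3K4me1 and with H3K27me3 were next compared at the same CpGs. Of the 42 peaks, 14 had at least 20 calls in both libraries at CpGs called in both. No peak was called in either direction by Fisher's exact test with Benjamini-Hochberg adjustment, and 0 had an unadjusted p under 0.05. Over the series, 3.02% of 11087 peaks were called less methylated and 0.613% more methylated on H3K4me1. Differences ran from -6.67 points at a Sall4 peak to 9.73 points at the upstream Pou5f1 peak, where H3K4me1 had 35 of 255 methylated calls and H3K27me3 1 of 25. The difference was above 0 at 12 of the 14 peaks, with a median of 3.39 points beside 0.159 over all peaks tested. The share above 0 was not counted over all peaks, so 12 of 14 is not read as particular to these genes. The peaks had 22 to 327 H3K27me3 calls, and differences under 20 points could not be called at any depth.

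For H3K9me3 the depth allowed 4 peaks, and 1 was called: the peak at the Nanog start. At shared CpGs it had 13 of 320 methylated calls on H3K4me1 fragments (4.06%) and 19 of 47 on H3K9me3 fragments (40.4%), a difference of -36.4 points (Fisher's exact test, adjusted p = 1.70e-09). Over the series, 18.9% of 2418 peaks were called less methylated on H3K4me1 and 0.0827% more methylated. The H3K9me3 calls at Nanog fell into separate stretches. From -4807 to -4378, 0 of 18 were methylated, and H3K4me1 had 1 of 153. From -2370 to -2161, 14 of 15 were methylated at 8 CpGs, and H3K4me1 had 10 of 92. No CpG there had more than 2 H3K9me3 calls, so the difference can rest on very few fragments. Run 1 of H3K9me3 had 4 methylated of 7 calls in this stretch, and no H3K9me3 peak lies in the window.

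**Figure D5:**
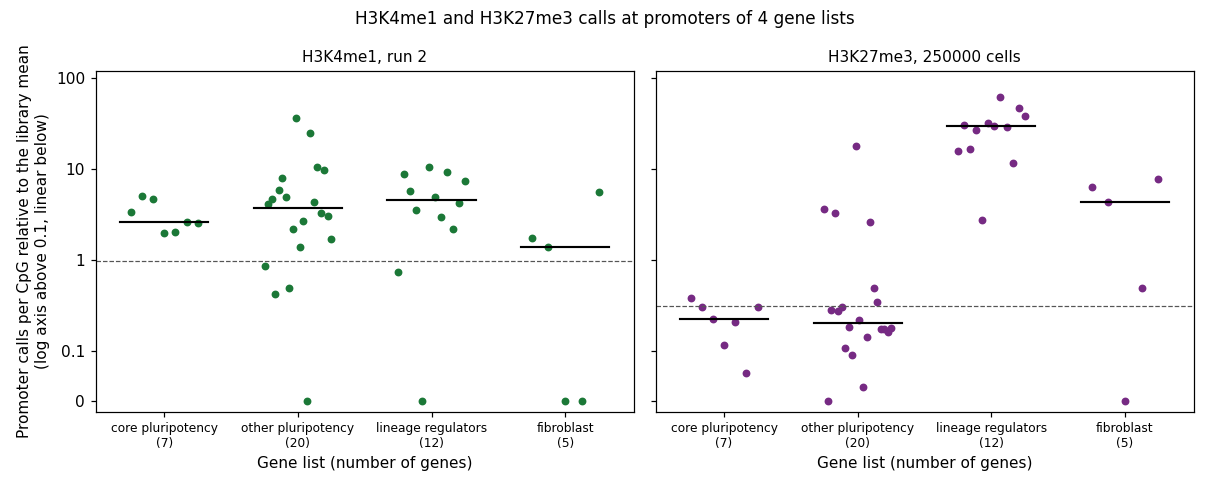
Calls per CpG in the promoter window relative to the library mean (vertical axis, logarithmic above 0.1 and linear below) for H3K4me1 run 2 and H3K27me3 from 250000 cells, by gene list (horizontal axis, number of genes in brackets). Points are genes, solid lines list medians and dashed lines the median of all protein-coding genes; the 12 lineage regulators lie between 2.72 and 61.6 for H3K27me3 and the 7 pluripotency genes between 0.0567 and 0.383.

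The label of the cells can be checked here only by marks, since no RNA was measured. Among 20 other pluripotency genes, 15 promoters had an H3K4me1 peak and 4 an H3K27me3 peak, against 23.0% and 29.8% of all promoters. Their H3K27me3 promoter calls had a median of 0.202, from 0 at Dppa4 to 17.9 at Lefty1, a Nodal antagonist. Of their 17 promoters with at least 20 calls, 16 were under 20% methylated, against 88.2% of all such promoters. Of 16 genes tested, 3 had non-promoter peaks called above the promoter, against 56.9% of all genes tested. The 12 regulators of differentiated lineages were listed as genes held by Polycomb in embryonic stem cells. Their H3K27me3 was thus part of the choice and is no independent check of the label. All 12 promoters had an H3K27me3 peak, against 29.8% of all promoters, and 9 an H3K4me1 peak, against 23.0%. Their H3K27me3 calls had a median of 29.4, from 2.72 at Gata4 to 61.6 at Neurog1, and did not overlap those of the 7 core genes. The median over all promoters, 0.313, lay within the range of the core genes. Since the lineage list was chosen for this mark, the lack of overlap is not read as a result. Of 10 lineage genes tested, 1, T (Brachyury), was called, against the same 56.9%. Among 5 fibroblast genes, checked because cultures may hold such cells, 3 promoters had an H3K27me3 peak and 1 an H3K4me1 peak. Their part in the results above was not tested.

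The genes most like the 7 were sought by 4 measures over these libraries: promoter level, level of non-promoter peaks, and window calls of H3K4me1 and H3K27me3. The nearest to the median of the 7, of 8599 genes ranked, were Tfcp2l1, itself a factor of the pluripotency network, Yars, a transfer RNA synthetase, Scd2, a fatty acid desaturase, Inpp5k, a phosphoinositide phosphatase, and Sertad1. Tfcp2l1 had a promoter level of 2.78%, a non-promoter level of 20.7% and H3K4me1 window calls of 7.51. The 7 genes themselves ranked from 5 (Pou5f1) and 40 (Tdgf1) through 136 (Sox2), 305 (Utf1), 555 (Sall4) and 1196 (Lin28a) to 1497 (Nanog). They are thus spread, with Nanog far for its methylated peaks and Lin28a for its low H3K4me1 window calls.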

How the data were processed

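The authors deposited, per the file headers, 1 table of whole-number counts of methylated and of all calls at 21908008 CpGs for 8 bisulfite libraries, plus peak lists of positions without scores per library and unified per mark. Per the submitters' processing notes, cutadapt 1.12, Bismark 0.23.0, Bowtie2 2.3.0, HOMER 4.10.3, bedtools 2.29.2 and build mm10 were used; treatment of duplicates is not given in the sources used here. All count columns were used (0 left out).

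Chromosomes 1 to 19 and X were analysed, with 377316 to 37159887 calls per library: 9684591 in H3K4me1 run 2 and 4915289 in run 1. The build was checked: 407620 of 407620 CpGs of RefSeq promoter sequences sit at the table's positions. Starts came from RefSeq's promoter table for 17274 genes and from the gene end with more CpGs for 4357, Sall4 among them. Sequences matched 6 of the 7 genes.

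A level is methylated over all calls in percent, with Wilson 95% intervals. A count of 0 allows up to 3 counts of the total. Intervals, limits and p-values cover counting error only. Fisher's exact tests (scipy 1.17.1), two-sided, with Benjamini-Hochberg adjustment (statsmodels 0.14.6), at least 20 calls on each side, were fitted over all genes or peaks. They were also run on simulated calls. Those calls were independent, so the simulation cannot show how the tests behave where calls share a fragment. The members and lists were chosen with earlier results of these data known. All 7 genes are named; of each gene's non-promoter peaks, the widest, least and most methylated with at least 20 calls, and every peak called between libraries; of each list, its lowest and highest gene; and the 5 genes most alike. Window size, flank, run, averaging, coverage minimum, peak list and call rule were varied. Exons and introns were not assigned here.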

Additional observations from a re-analysis of the deposited data

How the results depend on the processing

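No result changed its direction under any of the alternatives run. With a flank of 50 kb the windows held 73 H3K4me1 peaks in place of 42, and 28 with 10 kb. The promoter median of 3.85% became 1.39% with a window of 500 bp, 1.33% in run 1, 2.34% as a mean of single CpG levels and 6.25% from CpGs with at least 5 calls. The non-promoter median of 36.1% became 31.1% in run 1, 39.4% as a mean of single CpG levels, 28.4% and 32.6% with flanks of 10 kb and 50 kb, and 32.9% with peaks of the control without bisulfite. It became 31.4% when all peaks were used without the CpGs near starts, an alternative chosen after seeing the data. The count of genes called above their promoter rose from 3 to 7 by adjusted p alone, and lay between 2 and 4 otherwise. Single calls moved with the promoter window, flank or run: Nanog fell short with a 50-kb flank (17.3 points), Sall4 with a 2000-bp window (17.96), and Tdgf1 in run 1 (15.8) and without the CpGs near starts (19.8), while Pou5f1 reached 23.7 points with the 50-kb flank and 21.4 in run 1, Utf1 reached 30.2 points with the 2000-bp window, Sox2 20.6, and Lin28a 23.9 with the 50-kb flank. The causes were not tested. For H3K9me3, no peak at the 7 genes had 20 calls in run 1 of both marks, so run 1 gave no value.

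No paired analysis was possible because the runs of a mark were treated as 1 library sequenced again, a reading from the agreement of their calls, and their numbers then pair no samples. E14 is of 129/Ola background and reads were placed on the C57BL/6J-based mm10, and Nanog and Pou5f1 have pseudogene copies; the part of strain variants and copies in these counts was not tested. Bisulfite reads methylcytosine and hydroxymethylcytosine alike. With 78 to 145 calls per promoter, the levels of the 7 promoters are limited by depth.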

Other observations

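The 4 promoters of the wider pluripotency list with an H3K27me3 peak differed in H3K4me1; they were picked out after their values were seen. Lefty1, a Nodal antagonist, had H3K4me1 promoter calls of 36.2 times the library mean and H3K27me3 calls of 17.9, and 26.6% methylation over 526 calls in H3K4me1 run 2. Prdm14, a repressor of differentiation, had 24.8 and 2.62, with 5.78% methylation over 899 calls. Dppa3, an oocyte and germ cell factor, had 0.852 and 3.66, and Esrrb, an orphan nuclear receptor, 0.420 and 3.24, so their H3K4me1 calls were below the median of all promoters, 0.980. On H3K27me3 fragments from 250000 cells, methylation at the promoter window was 66.1% over 280 calls at Dppa3 and 78.9% over 237 at Esrrb. It was 23.8% over 998 calls at Lefty1 and 3.01% over 365 at Prdm14. Of the 4, only the Dppa3 promoter also touched an H3K9me3 peak. Both Dppa3 and Esrrb had under 20 H3K4me1 calls at the promoter window, and Esrrb has several known starts, of which 1 was placed here.

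Wide non-promoter peaks of the 7 genes had a higher pooled level at their edges than in their middle, by no test. In 16 non-promoter peaks of at least 2000 bp at the 7 genes, the outer parts, 25% of the width on each side, had 26.4% and the middle 21.3% methylation in run 2, and 25.6 and 20.9% in run 1. The edge was higher in 10 of the 16 peaks (62.5%), beside 66.9% of 8389 such peaks of the series, where the levels were 32.2 and 24.4%. In 7 wide promoter peaks of the genes the levels were 16.3% at the edges and 16.2% in the middle.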
